A study of Mus musculus with 33 samples.

Results

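Common lymphoid progenitors (CLPs) and granulocyte-macrophage progenitors (GMPs) sorted from marrow of old mice that received no treatment were compared across all genes, in 8 of the 33 libraries of the series, 4 of each cell type. The mice (O-WT) were wild-type C57BL/6 males of 24 to 29 months, and each library was total RNA of 1 sorted population, numbered 1 to 4 in the labels. The sorting gates took CLPs as lineage-negative cells with the Il7 receptor alpha chain and Flk2 (Flt3), and GMPs as lineage-negative, Sca1-negative, cKit-positive cells with CD34 and Fc gamma receptors. A further 4 CLP and 4 GMP libraries came from old males of the same strain that drank water with nicotinamide riboside (NR), a precursor of NAD, for 4 to 6 weeks (O-NR), and here they served as a repeat of the contrast in libraries that it did not use. One label field names the myeloid cells more broadly as common myeloid progenitors, and the library titles name them GMP. No source states that each library was 1 mouse. The deposited files of CLP and GMP libraries with the same replicate number carry a common number whose meaning is not stated, so the 2 cell types may come from the same mice, and p-values measure the spread between libraries. Young mice were not part of the comparison, and a difference between the cell types here is not a difference made by age.

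CLPs are the bone marrow stage from which B cells and a part of T, natural killer and plasmacytoid dendritic cells arise. They switch on the recombinase that cuts antigen receptor genes and the transcription factors of the B lineage before an antigen receptor is made. GMPs give rise to neutrophils, monocytes and, within the same gate, precursors of basophils, mast cells and eosinophils. They make large amounts of the proteases and peroxidase that fill primary (azurophil) granules, which requires high protein folding and secretion capacity, and C/EBP and PU.1 factors are known to direct that program.

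The labels were first set against marker transcripts that the gates use or that define the cells. Levels are CPM, the counts of a gene over the library total, after TMM scaling, on one scale for the 24 libraries of the cohort. Il7r, the receptor chain of the CLP gate, was at 305, 212, 164 and 281 CPM in the 4 CLP libraries and at 2.06, 0.868, 4.29 and 3.67 CPM in the 4 GMP libraries. Flt3 was at 441 and 25.6 CPM on average. Of the GMP gate, Fcgr3 was at 4.72 CPM in CLPs and 134 CPM in GMPs, Kit at 103 and 340.4 CPM and Cd34 at 135 and 235 CPM. These genes chose the cells, so their values are given as a description. Mpo, myeloperoxidase, took 1.40% to 1.49% of the counted reads of each GMP library and 0.0237% to 0.0452% of each CLP library. Every library thus matched its label by these markers, with the reservation that Mpo was at 263 CPM in CLPs against 4.01 CPM in the untreated hematopoietic stem cell (HSC) libraries of the cohort.

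The CLP libraries held 4792380 to 12058957 counted reads and the GMP libraries 11755798 to 18213674. As a gauge of reads outside blood cell transcripts, those in 1971 olfactory and vomeronasal receptor genes and pseudogenes, which serve smell, were summed. They made up 3059.8, 4279, 8303 and 2699.7 CPM in the CLP libraries and 1435, 858, 1279 and 2376 in the GMP libraries. Unlike the gene levels, these summed values are without TMM scaling. The TMM factors ran from 1.02 to 1.58 in the CLP libraries and from 0.696 to 1.04 in the GMP libraries. Scaled values, which divide by these factors, would lie closer together. The groups did not overlap (4585 ± 2569 against 1487 ± 641, SD, n = 4 each, two-sided exact permutation p = 0.0286, the smallest the design allows). CLP replicate 3, the library with the fewest reads, had the highest value, and without it the difference of the means was 1859 instead of 3098 CPM (exact permutation p = 0.0571). The value also moved with the number of counted reads. Within each cell type it was highest in the library with the fewest reads and lowest in the one with the most. CLP replicate 4, with 12058957 reads, was at 2699.7 CPM and GMP replicate 4, with 11755798, at 2376 CPM. The parts of cell type and of read number in this difference were not tested, nor was the part of these reads in the differences of weakly expressed genes.

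Of 16730 genes tested, 5529 (33%) were called higher in CLPs and 3605 (21.5%) higher in GMPs, so 54.6% differed, by edgeR's quasi-likelihood test with a Benjamini-Hochberg adjusted p below 0.05 and a fold above 1.5. The strongly expressed genes of the contrast were mostly those of GMPs. Among calls with a mean of at least 10 CPM in the higher group, 1895 were higher in CLPs and 3474 in GMPs, at 30 CPM 449 and 2728, and at 100 CPM 111 and 1095. In contrast, 3634 of the CLP calls (65.7%) but only 131 of the GMP calls (3.63%) had a mean below 10 CPM. That is the range of the receptor genes, of which 227 of 1971 passed the filter of over 3 CPM in at least 4 libraries. Of these 227, 179 were called higher in CLPs and 0 in GMPs, with a median CLP mean of 5.43 CPM and a highest of 16.5 CPM. The median GMP mean of the 227 was 2.88 CPM, below the filter level. The filter thus favoured receptor genes higher in CLPs, and their count cannot show a direction. Strong differences were of similar number in both directions, with 48 genes over 16-fold higher in CLPs and 36 in GMPs. The groups did not overlap for 7070 of the 9134 called genes. These genes were chosen by their difference, and the share without overlap over all genes tested was not counted.

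**Figure D1:**
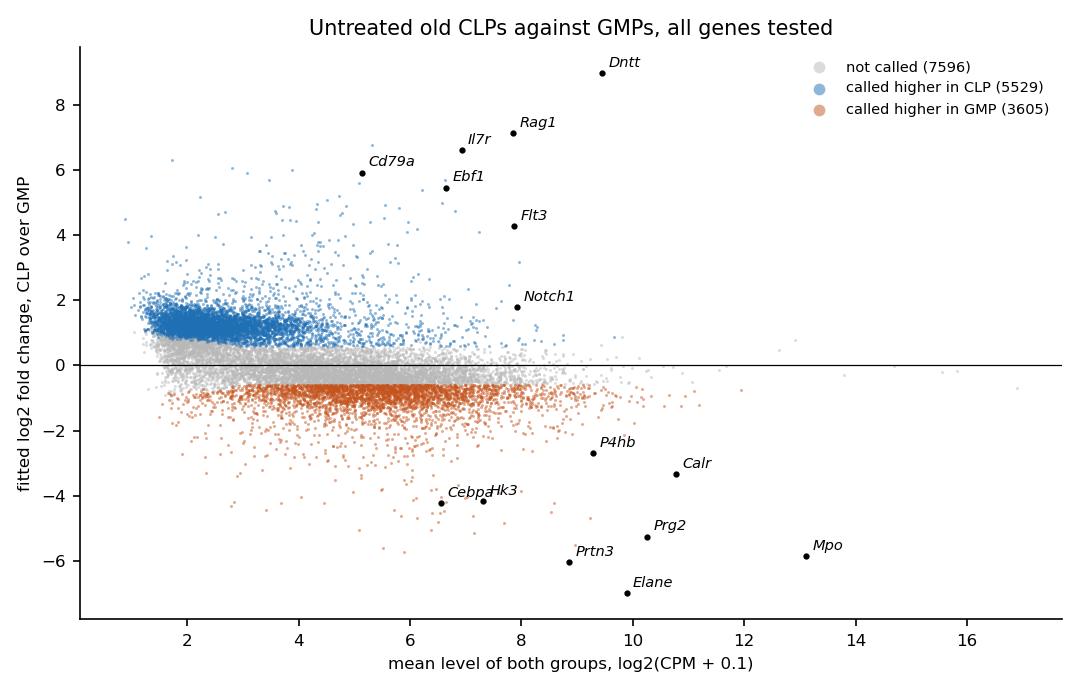
Fitted log2 fold change of CLPs over GMPs for each of the 16730 genes tested in O-WT (y axis) against the log2 of the mean CPM of both groups plus 0.1 (x axis), 1 point per gene, coloured by call. Genes called higher in CLPs (blue, 5529) gather at low levels, while genes called higher in GMPs (orange, 3605) reach the highest levels, and Mpo has the highest mean level of the called genes.

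Without CLP replicate 3 and on the same genes, 4499 genes were called higher in CLPs and 3273 in GMPs, or 3395 and 2813 when the filter was applied anew to the 7 libraries. The counts without CLP replicate 2 were 4646 and 3588, or 3626 and 3011 with the filter applied anew. Also, the balance of the directions followed the scaling. Upper quartile factors moved the fold changes by a median of 0.38 on the log2 scale toward CLPs, so that at 10 CPM 2670 calls were higher in CLPs and 1525 in GMPs, and over all levels 82.2% of calls were higher in CLPs instead of 60.5%. Library totals alone moved them by 0.41 (83.2% of calls higher in CLPs), a filter of 10 CPM by 0.34, and no filter by 0.41 in the other direction (46.8%). The counts or medians of gene groups with differences near that size are therefore given below with upper quartile factors as well, while the genes named for large differences lie far beyond it.

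**Figure D2:**
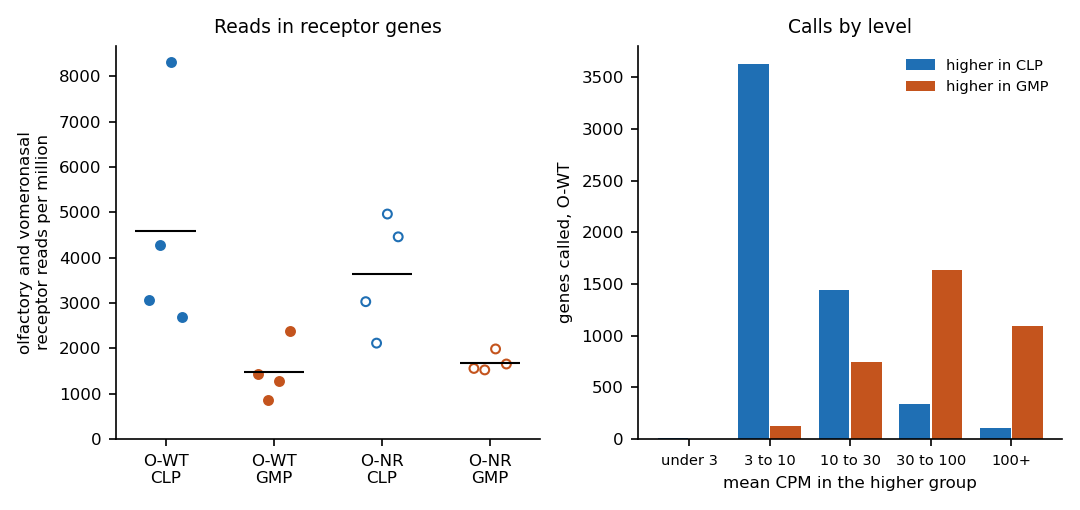
Left, summed CPM of olfactory and vomeronasal receptor genes without TMM scaling in each library (points; the line is the mean of 4), with filled points for O-WT and open points for O-NR. Right, number of genes called in O-WT by the mean CPM in the higher group; calls between 3 and 10 CPM were 3627 in CLPs and 131 in GMPs, and calls of 100 CPM and over were 111 and 1095.

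The genes of antigen receptor recombination and early B cell development were far higher in CLPs. Dntt (chr19:41029275-41059525), which encodes the terminal transferase that adds bases to receptor gene junctions, was at 1613, 1426, 837 and 1699 CPM in CLPs and at 2.75, 2.52, 3.21 and 3.83 CPM in GMPs. The groups were far apart in every library, and the fitted log2 fold change of 8.97 ± 0.30 (SE) was the largest of the genes named here (adjusted p = 8.43e-13, edgeR). Rag1 and Rag2, which lie side by side on chromosome 2 (chr2:101638282-101649501 and chr2:101624718-101632529) and encode the recombinase, were at 459 ± 147 CPM against 3.65 ± 1.1 CPM and at 90.3 ± 22 CPM against 3.36 ± 0.428 CPM (SD, n = 4 each). Their log2 fold changes were 7.12 and 4.92. In all, 17 of the 23 tested members of this list of 24 were called higher in CLPs (33% of all genes were) and 0 higher in GMPs, with a median log2 fold change of 3.18 against 0.10 over all genes tested. Cd79a, the Ig-alpha chain of the B cell receptor, was at 93.1, 78.1, 42.9 and 63.1 CPM in CLPs and between 0.659 and 2.28 CPM in GMPs. Blnk, the adaptor that links that receptor to its kinases, was at 144 ± 41.5 CPM against 3.83 ± 1.33 CPM (log2 fold change 5.38). CLP replicate 3 was the lowest CLP library for each of these 5 genes and still lay far above the GMP libraries. With the filter applied anew to the 7 libraries without CLP replicate 3, 9 members were called, and 17 on the same genes. The 6 members that were not called included repair factors that act in all cells, namely Lig4 at 0.41, Xrcc4 at 0.43, Dclre1c at 0.47 and Prkdc at -0.14 on the log2 scale, which were chosen after their values were seen. With upper quartile factors 21 of the 23 were called higher in CLPs, the first 3 of these 4 among them and Prkdc not.

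The RefSeq promoters of 3 of these genes (GRCm38.p6, 250 bases before to 50 bases after the start of transcription) are shown for the E-box CAGGTG, the class of site that E2A and related factors bind. Capitals mark the motif on either strand.
Rag1 (chr2:101649483-101649782, minus strand): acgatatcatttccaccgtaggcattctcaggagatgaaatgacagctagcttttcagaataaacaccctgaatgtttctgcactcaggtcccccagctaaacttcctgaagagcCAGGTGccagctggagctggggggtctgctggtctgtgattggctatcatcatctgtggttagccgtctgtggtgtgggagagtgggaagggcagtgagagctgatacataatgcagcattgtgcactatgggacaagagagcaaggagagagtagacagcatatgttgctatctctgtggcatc
Cd79a (chr7:24897247-24897546, plus strand): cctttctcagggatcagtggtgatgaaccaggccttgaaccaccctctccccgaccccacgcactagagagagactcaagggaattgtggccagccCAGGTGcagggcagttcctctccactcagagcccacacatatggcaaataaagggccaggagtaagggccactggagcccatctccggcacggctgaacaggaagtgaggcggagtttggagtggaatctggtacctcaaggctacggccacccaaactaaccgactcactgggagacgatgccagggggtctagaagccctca
Blnk (chr19:40994172-40994471, minus strand): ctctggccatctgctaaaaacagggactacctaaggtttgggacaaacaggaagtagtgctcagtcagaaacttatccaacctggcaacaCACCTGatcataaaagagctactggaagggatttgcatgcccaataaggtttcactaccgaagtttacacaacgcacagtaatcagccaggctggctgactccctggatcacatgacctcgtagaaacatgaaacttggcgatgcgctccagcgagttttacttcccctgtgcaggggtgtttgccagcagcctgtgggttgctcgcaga
Each of the 3 holds it once. It was in 8 of the 16 promoters of the early B and recombination list that the RefSeq table holds, in 20.5% of those of genes called higher in CLPs at 10 CPM or more, in 14.2% of those higher in GMPs and in 19.7% of all 20589 promoters. The other motifs searched for this list were CCCNNGGG for EBF1, found in 2 of the 16 and in 14.7% of all promoters, TGTGGTT for RUNX factors, found in 2 of the 16 and in 4.98% of all, GAGGAAG for PU.1, found in 4 of the 16 and in 13.6% of all, and TTGCNNAA for C/EBP factors, found in 1 of the 16 and in 10.3% of all. These are letter matches in a short window and no measurement of binding.

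Transcription factors of the lymphoid lineages followed, with 22 of 29 tested called higher in CLPs, 1 higher in GMPs and a median log2 fold change of 1.79. Ebf1, which opens the B cell program, was at 273, 209.9, 123 and 178 CPM in CLPs and at 4.99 ± 1.24 CPM in GMPs. Pax5, which holds cells to the B lineage, was at 292, 213, 107 and 165 CPM against 4.20 ± 1.27 CPM. Both had the same order of libraries, with CLP replicate 1 highest and replicate 3 lowest, and their log2 fold changes were 5.45 ± 0.24 (SE) and 5.68 ± 0.29 (SE). Foxo1, which acts upstream of the Rag genes and of Il7r, differed less (65.2 against 9.38 CPM), as did the repressor Bach2 (70.4 against 7.21 CPM), with log2 fold changes of 2.96 and 3.44. Pou2af1, a B cell coactivator, was at 43.8 against 1.44 CPM. Ikzf2 was the exception, at 15.9 CPM in CLPs and 86.8 CPM in GMPs (log2 fold change -2.25, adjusted p = 8.62e-07, edgeR).

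**Figure D3:**
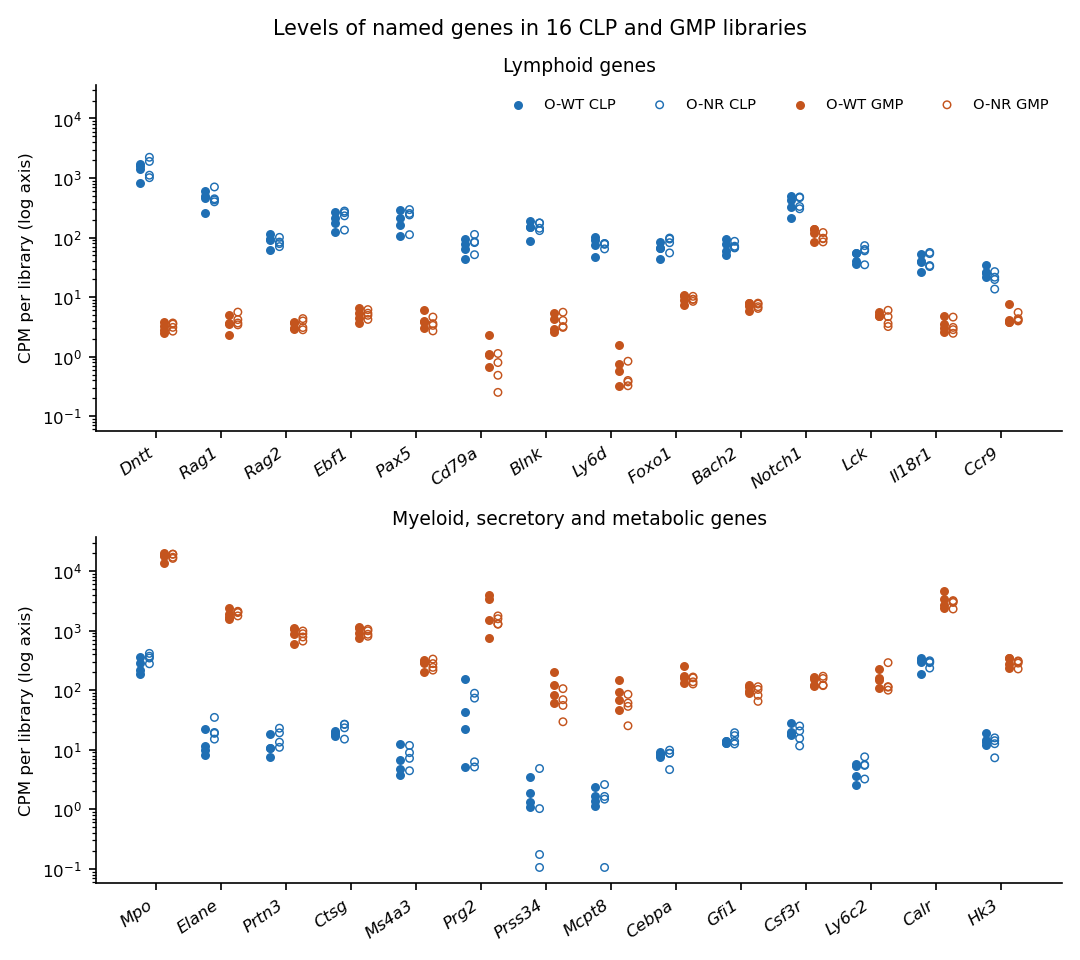
CPM of 28 named genes in each of the 16 libraries (log axis), with CLPs in blue and GMPs in orange, filled for O-WT and open for O-NR. The 4 O-WT CLP libraries and the 4 O-WT GMP libraries do not overlap for any gene shown, and the O-NR cell types lie on the same sides; Prg2 spreads most within an O-WT group, from 5.21 to 154 CPM in O-WT CLPs.

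Genes of T, natural killer (NK) and innate lymphoid cells were also higher in CLPs, at lower levels. Of 15 tested, 11 were called higher in CLPs and 1 higher in GMPs (median log2 fold change 1.73), and 5 were called higher in CLPs when the filter was applied anew without CLP replicate 3 (10 on the same genes). Lck, a Src family kinase of T cell receptor signalling, was at 46.7 ± 9.85 CPM against 5.01 ± 0.358 CPM, Il18r1, a chain of the interleukin 18 receptor, at 39.8 ± 11 CPM against 3.49 ± 1.01 CPM, and Cd247, the zeta chain, at 20.5 against 3.48 CPM. The defining T cell markers were near the level of the receptor genes above, and Cd4 was not called without CLP replicate 3 (log2 fold change 0.83). Cd3e was at 4.50 CPM in CLPs, Cd4 at 5.58 CPM and Cd5 at 8.31 CPM, while Cd3d, Cd8a, Cd8b1, Trac, Trbc1 and Trbc2 did not pass the filter on low counts. Nkg7, a granule protein of cytotoxic cells, went the other way, at 17.8 CPM in CLPs and 105 CPM in GMPs (log2 fold change -2.38).

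Among receptors and signalling proteins of lymphoid cells, 12 of 20 were called higher in CLPs and 2 higher in GMPs. Ly6d, a surface protein that marks CLPs committed to the B lineage, was at 103, 73.7, 47.7 and 91.4 CPM in CLPs and at most 1.57 CPM in a GMP library (log2 fold change 6.77 ± 0.28 (SE), adjusted p = 3.90e-12, edgeR). Notch1, the receptor that directs cells to the T lineage, was expressed in both, at 365 and 119.7 CPM, with a log2 fold change of 1.78. The chemokine receptors Ccr9 and Ccr7, which guide cells to the thymus and lymph nodes, were at 26.8 against 4.84 CPM and at 16.3 against 1.15 CPM. Stat5a and Cnr2 were the 2 members higher in GMPs, with log2 fold changes of -0.82 and -1.05, and neither was called with upper quartile factors.

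Markers of plasmacytoid dendritic cells, which carry the Flt3 of the CLP gate, were called higher in CLPs in 9 of 11 cases (median log2 fold change 1.71), and their summed level was 370.5 to 649 CPM in CLP libraries and 194 to 248 CPM in GMP libraries. Cox6a2 was at 28.7 against 0.499 CPM, Siglech, their surface lectin, at 24.7 against 1.25 CPM, and Tcf4 at 173 against 69.5 CPM. The 12 listed genes include Ly6d, Ccr9 and Spib, which lymphoid progenitors also express. The B lineage and plasma cell list was higher in CLPs in 7 of 8 tested members, among them Ighd at 27.1 against 1.38 CPM and Sdc1 at 38.6 against 3.15 CPM. Of the plasma cell transcripts, Jchain, Mzb1, Igha and Igkc were below the filter, and Xbp1 was higher in GMPs (log2 fold change -1.65). Without CLP replicate 3 and with the filter applied anew, 5 plasmacytoid and 3 B lineage markers were called higher in CLPs, against 9 and 7 on the same genes. In bulk RNA, a larger share of a cell type and more of its RNA per cell cannot be told apart. The lineage stain that the study's methods give for marrow includes B220, so cells with B220 at the surface, among them most B cells and plasmacytoid dendritic cells, would be removed by it.

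Genes of other functions stood beside the lymphoid ones among the CLP calls with the smallest p-values and largest folds. Gimap6, a GTPase of the immune-associated family, was at 107 ± 34.0 CPM against 4.24 ± 0.915 CPM, with 103 CPM in HSCs. Cmah, the enzyme that makes the sialic acid Neu5Gc, was at 184 ± 53.0 CPM against 6.44 ± 1.23 CPM with 8.37 CPM in HSCs. The transcriptional coregulator Mn1 had a log2 fold change of 5.59 and the GDNF family receptor Gfra2 one of 5.19. The remaining genes of this group were Drc7 (3.69), Epb41l4b (3.72) and Emp1 (4.33). The largest adjusted p of the 7 was 2.36e-11 (edgeR).

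Genes of antigen presentation were read by class, beside the 33% of all genes called higher in CLPs and the 21.5% called higher in GMPs. Of the 9 genes of MHC class II, 5 were called higher in CLPs and 0 higher in GMPs (median log2 fold change 0.82; 7 and 0 with upper quartile factors). H2-Ob, the beta chain of the DO molecule that restrains peptide loading, differed most, at 134, 105, 73.1 and 148 CPM against 7.03, 7.02, 8.49 and 7.33 CPM. Cd74, the invariant chain, was at 94.3 against 46.4 CPM, the transactivator Ciita at 22.1 against 10.8 CPM, H2-Aa at 36.3 against 17.7 CPM and H2-Eb1 at 19.3 against 12.2 CPM, which was not called with no filter on low counts or without GMP replicate 1 on the same genes (log2 fold change 0.62). H2-Ab1 (0.43), H2-DMa (0.49), H2-Oa (0.26) and H2-DMb1 (-0.43, log2 fold changes) were not called. The class I list had 2 of 12 members higher in CLPs and 1 higher in GMPs, and its median of 0.05 became -0.34 without a filter and 0.43 with upper quartile factors (5 and 1). Interferon-stimulated genes were called higher in CLPs in 15 of 28 cases and higher in GMPs in 1, with a median of 0.76 on the log2 scale (10 and 2 without a filter, 21 and 0 with upper quartile factors). Ifi203, a DNA sensor of the p200 family, was at 215 against 48.2 CPM and Ifi44 at 17.8 against 1.72 CPM. MHC genes have close copies, between which the counting may have split reads.

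In GMPs, the genes of primary granules were far higher. Mpo (chr11:87793581-87804413) was at 17751, 20236, 18322 and 13426 CPM in GMPs and at 222, 184, 287 and 360.1 CPM in CLPs, a log2 fold change of -5.85 ± 0.35 (SE) with an adjusted p of 2.08e-10 (edgeR). Elane (chr10:79886247-79888215), neutrophil elastase, was at 1707, 1910.0, 2376 and 1541 CPM against 11.5, 8.04, 22.6 and 9.77 CPM. It had the largest log2 fold change in favour of GMPs among the genes named here (-6.98 ± 0.35 (SE)). On the TMM scale, CLP replicate 4 was the highest CLP library for Mpo and replicate 3 for Elane. As a share of counted reads, without that scaling, replicate 3 was the highest for Mpo as well (0.0452%, and 0.0367% in replicate 4). Replicate 3 had the highest receptor gene CPM of the CLPs and replicate 4 the lowest. The neighbour of Elane, Prtn3 (chr10:79874476-79883174), proteinase 3, was at 915 ± 226 CPM against 12 ± 4.69 CPM, and Ctsg (chr14:56099881-56102574), cathepsin G, at 980.5 ± 194 CPM against 18.9 ± 1.5 CPM. Of the 15 members of the list, 14 were called higher in GMPs (21.5% of all genes were) and 0 higher in CLPs, with a median log2 fold change of -2.54. Ms4a3 (-5.14) and Igsf6 (-4.80) were among them. Fcnb, ficolin B, was the member that was not called (-0.58), at 5.46 CPM in GMPs.

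The promoters of the 4 serine protease and peroxidase genes are shown for GAGGAAG, a core that PU.1 binds, with its matches on either strand in capitals (RefSeq, GRCm38.p6, same window). The RefSeq start of Prtn3 lies 5191 bases from the gene start of the Gencode annotation.
Mpo (chr11:87793534-87793833, plus strand): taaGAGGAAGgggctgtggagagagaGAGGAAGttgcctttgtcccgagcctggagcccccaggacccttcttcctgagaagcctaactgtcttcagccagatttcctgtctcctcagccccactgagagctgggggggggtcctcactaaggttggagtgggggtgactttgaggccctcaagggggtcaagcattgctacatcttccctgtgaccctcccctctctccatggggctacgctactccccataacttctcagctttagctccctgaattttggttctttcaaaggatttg
Elane (chr10:79886062-79886361, plus strand): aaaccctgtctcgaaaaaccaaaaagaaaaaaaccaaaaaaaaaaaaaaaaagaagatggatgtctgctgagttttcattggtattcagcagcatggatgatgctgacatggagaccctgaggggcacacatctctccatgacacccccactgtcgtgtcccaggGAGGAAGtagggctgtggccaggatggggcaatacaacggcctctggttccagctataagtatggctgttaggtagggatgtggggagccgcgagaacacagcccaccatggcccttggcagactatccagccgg
Prtn3 (chr10:79879417-79879716, plus strand): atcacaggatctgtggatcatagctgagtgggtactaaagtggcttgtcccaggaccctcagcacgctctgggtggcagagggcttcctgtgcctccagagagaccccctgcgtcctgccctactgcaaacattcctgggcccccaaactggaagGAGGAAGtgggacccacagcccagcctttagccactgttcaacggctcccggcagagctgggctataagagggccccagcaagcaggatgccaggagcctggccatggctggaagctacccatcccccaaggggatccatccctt
Ctsg (chr14:56102525-56102824, minus strand): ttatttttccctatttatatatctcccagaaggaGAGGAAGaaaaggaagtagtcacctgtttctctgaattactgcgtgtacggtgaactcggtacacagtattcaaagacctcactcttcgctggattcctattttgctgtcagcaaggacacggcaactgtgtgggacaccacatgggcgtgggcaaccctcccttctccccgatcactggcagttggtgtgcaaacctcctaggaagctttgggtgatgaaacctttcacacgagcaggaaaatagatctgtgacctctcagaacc
Mpo holds 2 matches and the other 3 genes hold 1 each. The motif was in 5 of the 13 primary granule promoters in the table, in 13.9% of those of genes called higher in GMPs at 10 CPM or more, in 14.1% of those higher in CLPs and in 13.6% of all promoters. TTGCNNAA, a C/EBP core, was in 4 of the 13 and in 10.3% of all. The EBF1 and RUNX motifs above were in 2 of the 13 each and the E-box in 1. As above, these matches are a description.

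The C/EBP factors moved with the granule genes. Cebpa was at 173, 251, 160.0 and 132 CPM in GMPs and at 8.10, 7.49, 8.47 and 9.20 CPM in CLPs (log2 fold change -4.22 ± 0.17 (SE), adjusted p = 2.26e-12, edgeR). Cebpe, of later granulocytes, was at 59.1 against 3.50 CPM, Cebpb at 46.8 against 3.50 CPM and Cebpd at 41.2 against 4.81 CPM. Gfi1, a repressor needed for neutrophils, had a log2 fold change of -2.76. Of the 19 tested members of the myeloid list, 12 were called higher in GMPs and 2, Egr2 and Bhlhe41, higher in CLPs at means below 5 CPM. Egr2 lost the call with the replicate number as a block and without GMP replicate 1, 2 or 3 or CLP replicate 2 or 3 (log2 fold changes of 1.02, 0.89, 0.99, 1.02 and 0.80 on the same genes). The median log2 fold change was -1.20.

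All 11 tested markers of mast cells, basophils and eosinophils were called higher in GMPs, and their median log2 fold change of -4.44 was further from 0 than that of the primary granule list. They were uneven among the GMP libraries. Prg2, the eosinophil major basic protein, was at 3974, 3388, 739 and 1496 CPM in GMPs and at 154, 42.5, 22.2 and 5.21 CPM in CLPs, with the widest SE among the genes given here (-5.25 ± 0.73 (SE)). The basophil and mast cell proteases Prss34 and Mcpt8 were at 124, 201, 60.7 and 81.6 CPM and 92.8, 149, 46.4 and 68.5 CPM in GMPs and below 4 CPM in each CLP library. Gata2, a factor of these lineages and of HSCs, was at 119, 206, 65.4 and 91.8 CPM in GMPs, 8.91 CPM in CLPs and 417 CPM in HSCs. GMP replicate 2 was highest and replicate 3 lowest for Prss34, Mcpt8 and Gata2, while replicate 1 was highest for Prg2. The summed level of the list ran from 1596 to 6907 CPM in GMP libraries and from 51.1 to 305 CPM in CLP libraries.

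Receptors of myeloid growth factors were split. In all, 9 of 14 tested members were called higher in GMPs, among them Csf3r, the G-CSF receptor, at 142 ± 24.6 CPM against 21.3 ± 5.01 CPM, and Ifngr1 (-2.24), Tnfrsf1a (-1.68) and Il6ra (-1.69, log2 fold changes). Csf2rb (-2.23) shares most of its sequence with Csf2rb2, so its count is uncertain. Among the 4 called higher in CLPs were Il18rap (2.66), Cd33 (3.33) and Il17ra (1.40). Il18rap and the Il18r1 named above form 1 receptor, and both chains were higher in CLPs. Of the 6 subunits of the NADPH oxidase, which makes the oxidative burst, 5 were called higher in GMPs, among them Cybb (-1.88), Cyba (-1.99) and Ncf4 (-0.79), and Rac2 was not (-0.35). Ncf4 was not called with upper quartile factors.

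Monocyte genes did not move as a block. The median of the 15 members was -0.43, or -0.05 with upper quartile factors, where 7 were called higher in GMPs and 5 higher in CLPs. With no filter 8 and 1 were called. In the reported fit Ly6c2, F13a1, Ms4a6c, Ccr2 and Csf1r were among 7 called higher in GMPs (21.5% of all genes were), with log2 fold changes from -5.06 to -1.89. Another 4 members were called higher in CLPs (33% of all genes were). Of the latter, Mpeg1, the pore-forming perforin-2, was at 201 ± 59.1 CPM against 80.7 ± 13.8 CPM and the protease Ctss at 42.5 against 27.5 CPM, not called with no filter on low counts, while Fn1 and Fcgr1 lost the call without CLP replicate 3. Secondary granule and mature neutrophil genes were called higher in CLPs in 8 of 13 cases and in GMPs in 2 (33% and 21.5% of all genes). By count this was against the direction of the primary granules. The summed level of the list was not higher in CLPs, at 100 to 268 CPM in CLP libraries and 202 to 302 CPM in GMP libraries. In O-NR the sums were 68.9 to 214 and 203 to 268 CPM. Levels of these genes were low, and with a filter of 10 CPM 2 members were called higher in CLPs and 1 higher in GMPs. S100a9, a subunit of calprotectin, was at 31.2, 10.2, 23.8 and 54.9 CPM in CLPs and 2.59 ± 1.99 CPM in GMPs, Ngp at 35.7, 6.81, 23.3 and 37.4 CPM and Ltf, lactoferrin, at 33.7, 10.8, 24.5 and 32.0 CPM. CLP replicate 2 was the lowest CLP library for all 3 of these genes. In O-NR 4 of 12 members were called higher in CLPs and 3 higher in GMPs. Anxa1 was higher in GMPs, with a log2 fold change of -2.76.

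Genes of the secretory pathway were higher in GMPs almost without exception, in 34 of 36 cases and 0 in CLPs, with a median log2 fold change of -1.74 (-1.37 and 30 genes with upper quartile factors). Calr, a calcium-binding chaperone of the endoplasmic reticulum that folds myeloperoxidase, was at 2668, 4552, 2392 and 3363 CPM in GMPs and 316, 292, 184 and 343 CPM in CLPs. P4hb, a disulfide isomerase, was at 1105 ± 219 CPM against 150.1 ± 37.8 CPM, and the glycosylation subunit Rpn1 and the stress-induced factors Sdf2l1 and Manf had log2 fold changes of -2.32, -2.45 and -2.03. Atf6 (-0.31) and Ddit3 (-0.43), which signal stress in that compartment, were the members not called. CLPs were at 150.1 CPM for P4hb and HSCs at 144 CPM.

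Glycolysis showed a like shift, with 17 of 23 members higher in GMPs and 3 higher in CLPs (median -1.64, and -1.26 with upper quartile factors). Hk3, the hexokinase of granulocytes, was at 304 ± 56.5 CPM against 14.8 ± 3.10 CPM (log2 fold change -4.17 ± 0.17 (SE)). Aldoa (-2.60), Pgam1 (-2.48), Hk2 (-2.01) and Pfkp (-1.77) were also higher in GMPs. The 3 members higher in CLPs were Slc2a3, a glucose transporter, at 26.1 against 19.4 CPM (not called with DESeq2, with RLE factors, nor, on the same genes, without GMP replicate 3 at a log2 fold change of 0.55 or without CLP replicate 3 or 4 at 0.58 and 0.56), and the isoforms Aldoc and Eno2, both below 5 CPM in CLPs. Other genes of the GMP calls with the smallest p-values and largest folds were Gstm1, a glutathione transferase (262, 293, 320.0 and 211 against 9.31, 9.72, 9.67 and 10.1 CPM), the actin-severing protein Dstn (-4.07), Rab44 (-4.49), Gpc1 (-4.47), Csgalnact2, an enzyme of chondroitin sulfate (-4.04), Card9, an adaptor of antifungal signalling (-3.51), and Gatm, of creatine synthesis (-3.43).

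The machinery of translation and respiration was also lower in CLPs, but by amounts closer to the shift between scalings. Of 35 Myc and ribosome biogenesis genes, 32 were called higher in GMPs and 1, Mycn, higher in CLPs (median log2 fold change -0.94). Of 20 cytosolic aminoacyl-tRNA synthetases the numbers were 17 and 0 (median -0.97), of 78 nuclear respiratory chain subunits 69 and 1 (median -0.98) and of 77 cytosolic ribosomal proteins 62 and 0 (median -0.77). With upper quartile factors, 16, 11, 41 and 17 of them were still called higher in GMPs, and the medians were -0.56, -0.59, -0.60 and -0.40. The median of all genes tested was 0.10, and 0.48 with upper quartile factors, and ribosomal proteins were at 44 of 77 without CLP replicate 3 on the same genes. The genes with the smallest p-values included Nop16 (-1.41), Ftsj3 (-1.48) and Pes1 (-1.19) of ribosome assembly, Nars (-1.99) and Farsa (-1.70) of the synthetases, and Uqcrc1 (-1.57) and Cox5b (-1.40) of the respiratory chain. The 8 tested protein-coding transcripts of the mitochondrial genome did not share this, with a median of -0.08, log2 fold changes from -0.22 to 0.19 and 0 called. Of the 13 listed, mt-Nd4l, mt-Co2, mt-Co3, mt-Atp6 and mt-Atp8 did not pass the filter on low counts. Why they did not was not tested, so the comparison covers only a part of the mitochondrial genes.

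**Figure D4:**
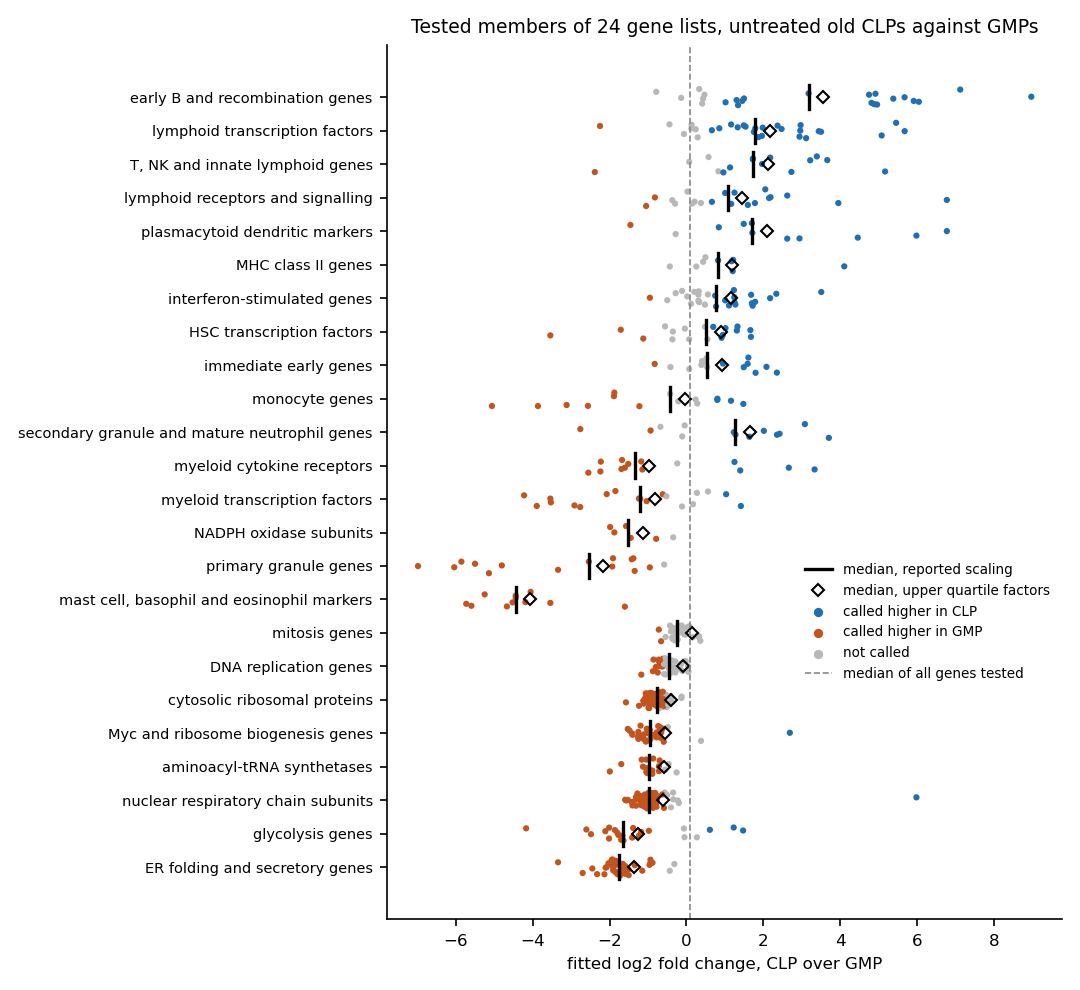
Fitted log2 fold change of CLPs over GMPs in O-WT (x axis) for the tested members of 24 gene lists (rows), 1 point per gene, coloured by call. The black bar is the median of each list, the open diamond its median with upper quartile factors and the dashed line the median of all genes tested (0.10); lists of recombination and lymphoid factors lie to the right and those of granules, secretion and basophil markers to the left under both scalings.

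Genes of the cell cycle differed by amounts near the shift between scalings. No mitosis gene was called higher in CLPs and 2 of 32 were called higher in GMPs, with a median of -0.24 that became 0.14 with upper quartile factors, where 4 were called higher in CLPs; edgeR's filterByExpr called 13 higher in GMPs. Of 42 DNA replication genes, 12 (28.6%) were called higher in GMPs, against 21.5% of all genes, with a median of -0.46. The number was 7 without CLP replicate 3 on the same genes, 34 with edgeR's filterByExpr and 1 with upper quartile factors, Fen1 (-1.17, the flap nuclease). Among 13 tested G1 cyclins and CDK inhibitors, Ccnd3, the cyclin D3 of lymphoid progenitors, was at 189 against 86.2 CPM and Cdkn1a, the inhibitor p21, at 29.6 against 6.93 CPM, and the other 11 were not called. The median of the list was -0.09 and turned to 0.29 with upper quartile factors. Of 57 replication-dependent histone genes, whose copies are near-identical, 2 were called higher in CLPs and 6 higher in GMPs, against 6 and 1 with upper quartile factors.

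The NAD pathway, which NR feeds, showed no common direction between the untreated cell types. Of 29 tested members, 8 (27.6%) were called higher in CLPs and 6 (20.7%) higher in GMPs, near the 33% and 21.5% of all genes. The median was -0.03 and turned to 0.35 with upper quartile factors (11 and 3). Bst1, an enzyme that consumes NAD at the surface of B cell precursors and stroma, was at 10.1 ± 1.92 CPM against 1.45 ± 0.151 CPM. Higher in GMPs were the NAD kinases Nadk (111 against 40.9 CPM) and Nadk2 (76.1 against 21.6 CPM) and the deacylase Sirt7 (-1.02). Nampt, the enzyme that salvages nicotinamide, had a log2 fold change of -0.67 and was not called with upper quartile factors. Nmrk1, the kinase that phosphorylates NR, was at 10.2 against 5.50 CPM, near the range of the receptor genes, and was not called with no filter on low counts.

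Factors of HSCs were called higher in CLPs in 8 of 18 cases and higher in GMPs in 3 (33% and 21.5% of all genes), with a median log2 fold change of 0.51. With upper quartile factors the counts were 10 and 3 and the median 0.90, but with no filter on low counts 5 of 20 were higher in CLPs and 6 higher in GMPs, and with edgeR's filterByExpr 6 and 6. Erg (0.95), Mecom (1.33) and Meis1 (0.70) were among the former, of which Erg and Meis1 were not called with no filter on low counts, and Lmo2 (-1.71), Tal1 (at 14.7 against 36.4 CPM) and Gata2 the latter. Levels in CLPs stayed below those of HSCs, for example 23.8 against 285 CPM for Mecom and 61.1 against 458 CPM for Meis1. Immediate early genes, which also respond to handling of cells, were called higher in CLPs in 7 of 15 cases and higher in GMPs in 1 (33% and 21.5% of all genes; 11 and 0 with upper quartile factors, and 6 and 3 of 17 with no filter), with Btg2 at 26.5 against 10.8 CPM and Zfp36 at 25.3 against 8.16 CPM, and their part in other differences was not tested. In the Bcl2 family, the killer Bak1 (-1.19) and its activator Bid (-1.09) were higher in GMPs, while Bmf (1.66) and Bok (2.15) were higher in CLPs at means of 7.03 and 4.91 CPM.

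Markers of cells outside both gates were weak, and most of those called were higher in CLPs. Over all genes, 33% were called higher in CLPs, and 65.7% of those calls lay below 10 CPM. The filter of over 3 CPM can favour weak genes higher in CLPs, so these counts alone cannot show a direction. With no filter, 6 of 12 stromal and endothelial and 3 of 12 erythroid markers were called higher in CLPs. For T cell and megakaryocyte markers the counts were 2 of 10 and 0 of 10. Called higher in GMPs were 1, 0, 0 and 2 members. Stromal and endothelial markers were called higher in CLPs in 8 of 11 cases, for example Col1a1 at 12.4, 10.7, 14 and 9.85 CPM against 4.43, 2.60, 6.59 and 5.46 CPM, and their summed level was 204 to 254 CPM in CLP libraries and 165 to 218 CPM in GMP libraries, so that the sums overlapped. The 4 tested erythroid markers were all called higher in CLPs, with sums of 53.2 to 59.0 and 28.6 to 33.1 CPM, and 2 of them without CLP replicate 3. The hemoglobin genes Hba-a1, Hba-a2, Hbb-bs and Hbb-bt averaged from 0.0412 to 1.00 CPM in the cell types. Of the T cell markers, 3 of 4 tested were called higher in CLPs, with sums of 29.3 to 42.1 and 15.2 to 20.7 CPM, and 2 of 4 without CLP replicate 3 on the same genes (1 of 3 with the filter applied anew). Megakaryocyte markers were called higher in CLPs in 3 of 5 cases, and in 0 cases without CLP replicate 3. In contrast, Itga2b (CD41) was at 92.3 ± 34.9 CPM against 11.3 ± 4.91 CPM and higher in GMPs. The part of such cells, of the filter or of the receptor gene reads in these values was not tested.

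Long noncoding genes were called higher in CLPs more often than in GMPs. Of 1914 long noncoding genes tested, 1010 (52.8%) were called higher in CLPs and 58 (3.03%) higher in GMPs, against 30.2% and 24.6% of 14142 protein-coding genes. Unprocessed pseudogenes, which are mostly silent gene copies, had 31 of 48 called higher in CLPs and 0 higher in GMPs. The classes were not matched for level, and over all genes 65.7% of the CLP calls but 3.63% of the GMP calls had a mean below 10 CPM. The part of level, of the filter or of the receptor gene reads in the balance of these classes was not tested. The small noncoding classes had few calls, and most of these were higher in GMPs, namely 5 of 10 microRNA genes, 3 of 15 snRNA genes, 3 of 46 snoRNA genes and 2 of 9 miscellaneous RNA genes, with 0 higher in CLPs in these classes, while 2 of 10 scaRNA genes were higher in CLPs. The 3 long noncoding calls with the smallest p-values in CLPs were Gm30948 on chromosome 12 (87.9 against 4.25 CPM), 2610307P16Rik (49.1 against 6.49 CPM) and Gm34680 (22.8 against 2.65 CPM). In GMPs they were Gm11505 (65.9 against 1.80 CPM), F630028O10Rik (402 against 12.5 CPM) and Trerf1 (-1.30 on the log2 scale). Gm11505 (chr11:87795784-87801144) lies within Mpo on the opposite strand, and since the strand setting of the counting is not given, its reads and those of Mpo cannot be told apart.

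The contrast was then measured in O-NR, whose 8 libraries share none with O-WT. Of 15644 genes tested there, 4199 (26.8%) were called higher in CLPs and 2547 (16.3%) higher in GMPs, 43.1% in all. Of the O-WT calls higher in CLPs, 4545 were tested in O-NR and 3334 (73.4%) were called again in the same direction, while 26% of the 15227 genes tested in both were called higher in CLPs in O-NR. Of the calls higher in GMPs, 3591 were tested and 2402 (66.9%) were called again, against 16.7% of the genes tested in both. In each direction 0 were called the opposite way, and 99.6% and 99.7% had the same sign. Across genes, which are not independent replicates, the log2 fold changes of O-WT and O-NR had a Pearson r of 0.94 and a median absolute difference of 0.22. Dntt was at 1899, 2228, 1115 and 1013 CPM in the O-NR CLPs and 3.24 ± 0.448 CPM in the O-NR GMPs, and Elane at 34.9, 19.5, 18.8 and 15.1 CPM and 1989 ± 153 CPM. The largest log2 fold changes were of like size, with 9.04 for Dntt, 6.99 for Rag1, -5.53 for Mpo and -6.35 for Elane in O-NR.

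**Figure D5:**
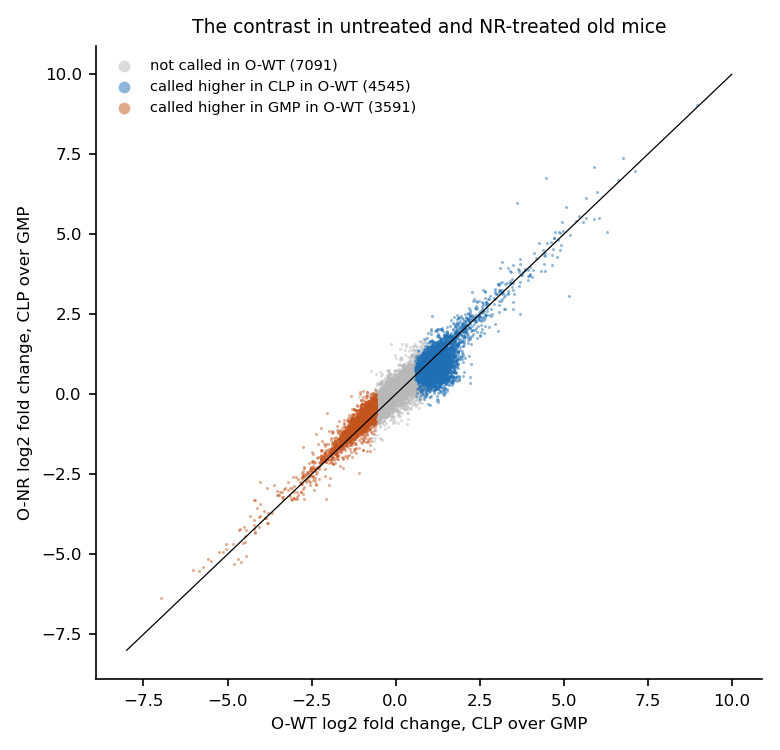
Log2 fold change of CLPs over GMPs in the O-NR libraries (y axis) against that in the O-WT libraries (x axis) for the 15227 genes tested in both, coloured by the O-WT call, with the line of equality. The points lie along the line (Pearson r of 0.94), with Dntt at the upper end and Elane at the lower end.

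In O-NR, 15 of 22 early B and recombination genes, 21 of 27 lymphoid transcription factors and 8 of 10 plasmacytoid markers were called higher in CLPs, and 14 of 15 primary granule genes, 11 of 11 mast cell, basophil and eosinophil markers, 32 of 36 secretory genes and 17 of 23 glycolysis genes higher in GMPs. Of the ribosomal proteins, 35 of 76 were called higher in GMPs. Whether the difference between CLPs and GMPs itself differed between NR and control was tested as an interaction over the 16 libraries. By edgeR's quasi-likelihood test 0 of 20233 genes (0%) had an adjusted p below 0.05 (smallest 0.994), while 669 had an unadjusted p below 0.05, and DESeq2 gave 0. The gene with the smallest p was Traf1, a signalling adaptor of TNF receptors, with a log2 fold change of 2.24 in O-WT and 0.93 in O-NR.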

How the data were processed

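The libraries were made from total RNA of sorted cells with a SMARTer stranded total RNA kit. Per the study's methods and the submitters' processing notes, the authors trimmed reads with cutadapt (trim galore), aligned them with STAR to mm10 and counted them per gene with featureCounts. The strand and multimapping settings are not given in the sources used here. The deposited values are raw read counts per gene symbol (55376 symbols), with no normalization and no pooling.

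Counts were tested in R 4.3.3 with edgeR 4.0.16 (glmQLFit and glmQLFTest) on the 8 libraries compared, with TMM factors and genes over 3 CPM in at least 4 libraries. A gene was called at a Benjamini-Hochberg adjusted p below 0.05 over all genes tested and a fold above 1.5. The SE printed is the absolute log2 fold change divided by the square root of F. Printed CPM share one TMM scale over the 24 libraries of the cohort, and the log2 ratio of their means differed from the fitted log2 fold change by a median of -0.18. O-NR was fitted alone, and the interaction on 16 libraries. DESeq2 1.42.0 was an alternative. Genes that the gates use carry no test. The fit was tested on simulated data.

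The genes, the 37 lists and the tests were chosen with earlier results of these data known. Named genes were the markers, per direction the 10 protein-coding calls with the smallest p and the 10 with the largest fold at 30 CPM or more in every library of the higher group, up to 5 calls per list and direction, the 3 long noncoding calls per direction and the 5 genes with the smallest interaction p. Members of longer lists named because they were not called (Lig4, Xrcc4, Dclre1c, Prkdc, Fcnb, Atf6, Ddit3) were chosen after their values were seen. Some genes that this rule names are not reported here. Positions come from Gencode M21 (GRCm38), which held 54510 of the symbols, and promoters from the RefSeq table of GRCm38.p6, which held 165 of 229 named genes. Scalings, filters, tests, a replicate block and left-out libraries were tried as alternatives. No 2 replicates agreed within sampling noise (smallest chi-square per degree of freedom 2.87).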

Additional observations from a re-analysis of the deposited data

Results flagged for a closer look

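One value stood apart. Emp1, which was higher in CLPs, was at 2.14 CPM in GMP replicate 3 of O-WT and between 3.71 and 3.75 CPM in the other 3 GMP libraries. The gap was 0.975 of the group's range, above Dixon's limit for a group of 4. It was the only 1 of 78 groups of 4 libraries past the limit, and chance puts about 1 in 20 groups past it.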

How the results depend on the processing

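The 5529 calls higher in CLPs became 2092 with a filter of over 10 CPM and 2990 with glmTreat against a fold of 1.5. The 3605 calls higher in GMPs became 1553 with upper quartile factors, 1445 with library totals only, 5553 with no filter on low counts, 6038 with a filter of over 1 CPM, 1616 with one of over 10 CPM, 6219 with filterByExpr and 1995 with glmTreat. The share of calls higher in CLPs (60.5%) became 82.2% with upper quartile factors, 83.2% with library totals and 46.8% with no filter. The share of O-WT calls called again in O-NR (70.5%) became 81.0% with upper quartile factors, 52.2% with no filter, 50.9% with over 1 CPM, 83.7% with over 10 CPM and 48.7% with filterByExpr. The interaction count of 0 became 1 with no filter. The cause was not tested.

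With each library left out in turn, calls higher in CLPs ranged from 3395 to 5549, calls higher in GMPs from 2813 to 3606, the share higher in CLPs from 54.6% to 60.6%, the share called again in O-NR from 59.2% (without O-NR GMP replicate 1) to 78.9%, and the interaction count from 0 to 0. The filter of 4 libraries drops genes of a cell type with 3 libraries left; on the same genes these ranges, chosen after seeing the data, were 4154 to 5889, 3273 to 3809 and 52.9% to 60.9%, and 68.0% to 75.2% were called again. The receptor read difference ranged from 1859 to 3727 CPM without TMM scaling, with exact permutation p up to 0.0857.

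Replicate numbers were shared by the cell types, and the deposited files carry common numbers, but no source says that they mark the same mouse. The deviations of same-numbered libraries correlated at 0.03, -0.05, -0.06 and -0.53 in O-WT and at 0.06, 0.24, 0.28 and 0.04 in O-NR. Not every pair was above 0.1 in either, so the numbers were not taken as pairing the libraries. With a replicate block, 4734 genes were called higher in CLPs and 3605 higher in GMPs, 73.4% of the O-WT calls were called again in O-NR and the interaction count was 0. Egr2, Fcgr1, Bax, Alas2, Gp6 and Snora43 lost the call under the block. Of the named genes with a test, 204 kept direction and call with upper quartile factors, 227 with DESeq2 and 222 with the block. No call turned into a call in the other direction under any alternative. Signs of genes that were not called did turn, for example Prkdc (0.24), Rac2 (0.025) and Atf6 (0.07) with upper quartile factors.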
